A study of Mus musculus with 6 samples.

Results

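The genes followed are regulators of DNA methylation and Polycomb silencing: Dnmt1, Dnmt3a, Dnmt3b, Uhrf1, Hells, Ezh2, Ezh1, Suz12, Eed and Tet2. They were chosen by the gene name printed beside each probe of the array, and all 10 of 10 names were found, on 17 of the 41174 probes that are not controls. Liver CD8+ T cells had been sorted for RNA, in 3 samples from dnTGFβRII CXCR3-/- mice (TGC3) and 3 from dnTGFβRII mice (TG). The mice were C57BL/6 females of 13 to 14 weeks. Every mouse thus carried the dnTGFβRII transgene, a truncated TGF-beta receptor II that blocks the signal, and the groups differ by the deletion of the chemokine receptor CXCR3 in TGC3. In the widely used dnTGFβRII line a Cd4 promoter without its CD8 silencer drives the transgene in both CD4+ and CD8+ T cells. The labels here do not name the promoter, and no mice without the transgene are compared here. Each sample had its own one-colour array, named TGC3 1 to TGC3 3 and TG 1 to TG 3. Nothing in the labels says that the samples were separate mice, so the spread behind the p-values may be technical.

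A level is the log2 of the processed signal minus the array's 75th percentile, so that 0 stands for a signal of 561 to 623 intensity units. A change is the log2 level in TGC3 minus that in TG, with its standard error from limma, and p-values are adjusted over the 16389 genes tested, with a threshold of 0.05. Per array, 58.9% to 63.8% of probes were detected well above background, and arrays correlated across genes at 0.993 to 0.995 within a group and 0.983 to 0.986 between the groups. The deleted gene, Cxcr3, changed by -11.35 ± 0.12 (adjusted p = 9.6e-07), a signal 2615-fold lower in TGC3, and the CD8 chain genes Cd8a and Cd8b1 were well above background on all 6 arrays. The TGC3 arrays shared 1 slide and scan and the TG arrays another, so for every difference given here slide and genotype cannot be told apart.

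DNA methylation in mammals sits mostly on CpG dinucleotides. Dnmt3a and Dnmt3b set it on bare sites, while Dnmt1 copies it onto the new strand after each replication fork, guided to half-methylated sites by Uhrf1, and the remodeller Hells opens packed chromatin for it. Tet2 oxidises the mark and so opens a way to its removal. Polycomb repressive complex 2 (PRC2) methylates lysine 27 of histone H3 through Ezh2 or Ezh1, which need Suz12 and Eed in the complex. Ezh2 is known as the form of dividing cells and Ezh1 as the form of resting ones, and in CD8+ T cells Ezh2 and Dnmt3a are known for silencing genes of naive and memory cells as effector cells form.

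Promoter windows are shown for the 5 of the 10 genes that hold letters known to be bound by E2F factors. For 4 of these 5 every TGC3 value lay above every TG value, as was so of 24.3% of all genes tested, and for Dnmt1 the groups overlapped. Of those 4, Hells and Suz12 did not pass the threshold. The part of these letters in any change was not tested. E2F factors, which drive genes needed for replication, bind sites such as TTTCCCGC, TTTGGCGC, TTTGCCGC and TTTCGCGC. At least 1 of these 4 forms, read on both strands, stood in the promoter windows of Uhrf1, Ezh2, Hells, Suz12 and Dnmt1, which makes 5 of the 10 genes, against 2.61% of the 27025 genes of the RefSeq table (GRCm38.p6). That table also holds genes that were not tested here. Of the 10577 tested genes with a window, 478 held at least 1 of the 4 forms. A window runs from 250 bases before to 50 after an annotated start, 300 bases in all, and the 10 genes have 15 such windows. The capitals mark the E2F letters, and each window is given on the strand of its gene.
Uhrf1 (chr17:56304063-56304362, plus strand): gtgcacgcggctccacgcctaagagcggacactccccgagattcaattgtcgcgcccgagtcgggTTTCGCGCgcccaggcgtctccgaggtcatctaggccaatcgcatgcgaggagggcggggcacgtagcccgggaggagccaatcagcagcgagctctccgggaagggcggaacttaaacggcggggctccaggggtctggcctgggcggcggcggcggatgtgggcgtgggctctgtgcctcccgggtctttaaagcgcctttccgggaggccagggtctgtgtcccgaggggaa
Ezh2 (chr6:47594981-47595280, minus strand): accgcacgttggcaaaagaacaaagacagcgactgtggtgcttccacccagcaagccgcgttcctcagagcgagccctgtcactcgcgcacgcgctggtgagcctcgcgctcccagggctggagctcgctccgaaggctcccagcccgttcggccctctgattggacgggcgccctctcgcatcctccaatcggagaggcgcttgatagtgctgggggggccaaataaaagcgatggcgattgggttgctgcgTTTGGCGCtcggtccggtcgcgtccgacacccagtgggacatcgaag
Hells (chr19:38930740-38931039, plus strand): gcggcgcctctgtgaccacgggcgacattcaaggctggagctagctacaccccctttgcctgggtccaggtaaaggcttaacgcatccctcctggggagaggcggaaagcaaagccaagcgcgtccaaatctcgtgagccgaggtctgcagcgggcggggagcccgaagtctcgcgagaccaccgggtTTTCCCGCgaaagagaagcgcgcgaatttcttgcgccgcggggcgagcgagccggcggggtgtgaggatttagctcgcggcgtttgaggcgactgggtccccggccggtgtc
Suz12 (chr11:79992856-79993155, plus strand): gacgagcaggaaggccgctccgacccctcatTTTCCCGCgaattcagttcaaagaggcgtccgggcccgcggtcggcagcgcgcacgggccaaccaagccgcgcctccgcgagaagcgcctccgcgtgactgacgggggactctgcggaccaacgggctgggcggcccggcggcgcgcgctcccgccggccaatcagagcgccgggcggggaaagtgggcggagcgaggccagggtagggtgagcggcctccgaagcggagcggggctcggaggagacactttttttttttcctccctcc
Dnmt1 (chr9:20952574-20952873, minus strand): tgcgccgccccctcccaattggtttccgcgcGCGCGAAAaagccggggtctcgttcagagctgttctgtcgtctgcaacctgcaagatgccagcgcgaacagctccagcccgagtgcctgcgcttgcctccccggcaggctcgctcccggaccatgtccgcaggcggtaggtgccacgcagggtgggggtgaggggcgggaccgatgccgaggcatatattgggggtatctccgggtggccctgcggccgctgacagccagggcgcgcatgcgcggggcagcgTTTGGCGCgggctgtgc
Counted from the start, the E2F letters lay at -185 to -178 in Uhrf1, at 4 to 11 in Ezh2, at -62 to -55 in Hells, at -219 to -212 in Suz12 and at both -219 to -212 (on the opposite strand) and 34 to 41 in Dnmt1. These windows are rich in CpG, with 31 (Ezh2) to 41 (Suz12) CpG dinucleotides and 64.3% to 71.0% G and C. Genes without the letters lay on both sides of that range, among them Eed with 17 CpG and 54.7% and Tet2 with 57 CpG and 81.3%. A Dnmt3a window had the most G and C, at 82.3%, with 46 CpG. The shorter forms TTCCCGC and TTGGCGC, which lie within 2 of the longer ones, marked the same 5 genes, against 7.79% of genes, and added a site at -48 to -42 in the other Uhrf1 window. Of the 10577 tested genes with a window, 1403 held a shorter form. CCAAT was in 5 of the 10 genes (41.1% of genes) and TTTGAA, the core of the cell cycle homology region, in 4 (20.2%). Of 478 tested genes with 1 of the 4 longer forms, 71 (14.9%) were higher and 35 (7.32%) lower, at a median change of -0.02. Of 10099 genes without them, 1499 (14.8%) were higher and 1010 (10%) lower, at a median of -0.03. The difference between these shares was not tested. A match to these letters is a description of the window and not of a bound site.

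Of the 10 genes, 2 were higher in TGC3 (Uhrf1 and Ezh2), 1 was lower (Dnmt3b) and 7 did not pass the threshold. Of all genes tested, 16.6% were higher and 9.45% lower, so that the share of these genes past the threshold, 3 of 10, lies near the background of 26% in either direction. In bulk samples a change in the share of cells of a kind and a change of RNA per cell cannot be told apart. Among the 6423 genes of like signal, between the lowest and highest of the 10, 10% were higher and 11.6% lower. The 3 TGC3 values lay above the 3 TG values for Uhrf1, Ezh2, Hells and Suz12 (24.3% of all genes) and below them for Dnmt3b and Ezh1 (22.4%), and the groups overlapped for Dnmt1, Dnmt3a, Eed and Tet2. The median change of the 10 was 0.05, against -0.01 over all genes. With a normexp background correction on the deposited spot backgrounds, none of Uhrf1, Ezh2 and Dnmt3b passed (adjusted p = 0.722 for each), as was so of all but 1 gene. On the same arrays 11 neutrophil markers summed to a level, relative to the 75th percentile, of 1.68, 8.23 and 3.15 in TGC3, against 0.22, 0.15 and 0.18 in TG. Their part in these changes was not tested. Leaving out TGC3 2 does not test it, since the sums of the other TGC3 arrays also lie above those of TG.

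**Figure D1:**
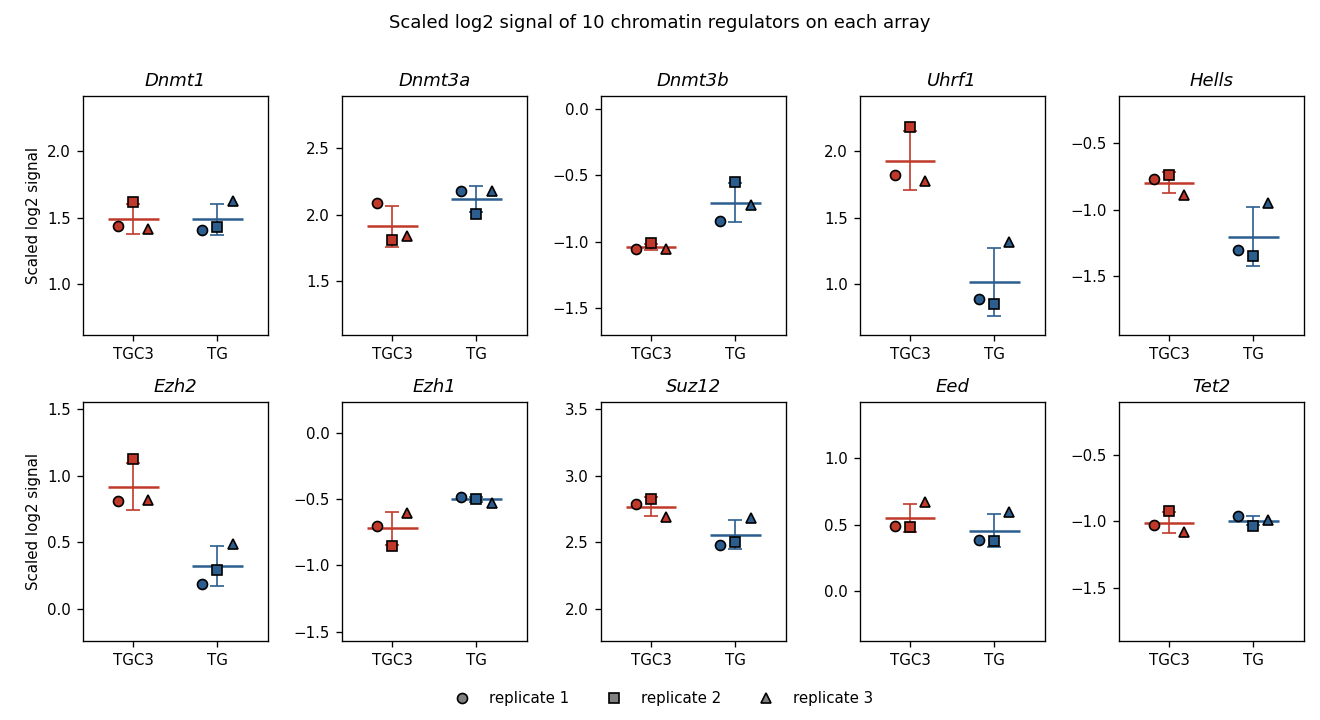
Scaled log2 signal of the 10 genes on each array, TGC3 left of TG; each point is 1 array, lines are means and bars are 1 SD (n = 3), and every panel spans the same height of the log2 scale. The groups stand farthest apart for Uhrf1 (0.91) and Ezh2 (0.60), and coincide for Dnmt1 (0.00) and Tet2 (-0.01).

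Uhrf1, the reader of half-methylated DNA that brings Dnmt1 to it, had the largest change of the 10. Its level was 1.82, 2.18 and 1.78 on TGC3 1 to TGC3 3, against 0.89, 0.85 and 1.31 on TG 1 to TG 3. In intensity units that was 2099, 2773 and 2139 on the TGC3 arrays, against 1040, 1031 and 1541 on the TG arrays. All TGC3 arrays lay above all TG arrays, with TGC3 2 the highest and TG 3 the nearest to the TGC3 arrays. The change was 0.91 ± 0.17 (95% interval 0.50 to 1.32, adjusted p = 0.0134), or 1.88-fold. Its probe lies at chr17:56462657-56462716 of mm9, and a separate one at chr17:56462554-56462613 gave 0.83 ± 0.15 (adjusted p = 0.0144 over all kept probes).

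Dnmt1, the maintenance methyltransferase, read 1.44, 1.62 and 1.41 on the TGC3 arrays, against 1.41, 1.43 and 1.62 on the TG arrays. The groups overlapped fully and the change was 0.00 ± 0.09 (95% interval -0.22 to 0.23, adjusted p = 0.977), an interval that leaves out a change as large as that of Uhrf1. Its single probe, 60 bases long, maps across 369 bases of mm9 at chr9:20711973-20712341 on the minus strand, and with the probes of Ezh2, Dnmt3a and Hells it is shown to make plain which stretch of each transcript was measured.
Dnmt1 probe: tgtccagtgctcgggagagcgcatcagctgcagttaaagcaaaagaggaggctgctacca
Ezh2 probe: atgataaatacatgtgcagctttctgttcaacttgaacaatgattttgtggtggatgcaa
Dnmt3a probe: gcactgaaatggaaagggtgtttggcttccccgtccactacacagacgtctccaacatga
Hells probe: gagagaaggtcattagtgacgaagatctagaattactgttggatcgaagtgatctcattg
The Ezh2 and Dnmt3a probes also map across more bases than they hold, at chr6:47482047-47482942 on the minus strand and chr12:3906868-3907649 on the plus strand of mm9, and that of Hells lies at chr19:39039914-39039973 on the plus strand.

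Hells, also called Lsh, read -0.77, -0.74 and -0.89 on the TGC3 arrays, against -1.31, -1.35 and -0.95 on the TG arrays. Every TGC3 array lay above every TG array, though TGC3 3 and TG 3 differed by little. The change of 0.40 ± 0.12 (95% interval 0.11 to 0.70) missed the threshold (adjusted p = 0.0560), and a second probe gave 0.54 ± 0.16 (adjusted p = 0.0572 over all kept probes). Without TG 3 the first probe passed (0.53, adjusted p = 0.0161).

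Of the de novo methyltransferases, Dnmt3b was lower and Dnmt3a did not pass. Dnmt3b read -1.05, -1.01 and -1.06 on the TGC3 arrays, against -0.84, -0.55 and -0.73 on the TG arrays. The TGC3 values were close together and all below the TG values, and the change of -0.34 ± 0.09 (95% interval -0.55 to -0.12, adjusted p = 0.0368) was a fall of 1.26-fold. That call held without TG 1 (adjusted p = 0.0387) but not without TGC3 1 (0.0997), TGC3 2 (0.0648), TGC3 3 (0.0984), TG 2 (0.0831) or TG 3 (0.0814), nor with no filter on dim probes (0.0905). Dnmt3a, the de novo enzyme best known in T cells, read 2.09, 1.81 and 1.84 on the TGC3 arrays, against 2.18, 2.00 and 2.17 on the TG arrays, and the groups overlapped through TGC3 1. Its change was -0.21 ± 0.10 (95% interval -0.45 to 0.04, adjusted p = 0.179), and its other 2 probes gave -0.25 (adjusted p = 0.0705, groups apart) and -0.11 (adjusted p = 0.509).

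Tet2, a dioxygenase that oxidises methylcytosine, read -1.03, -0.92 and -1.08 on the TGC3 arrays, against -0.96, -1.03 and -0.99 on the TG arrays. Its groups overlapped, with a change of -0.01 ± 0.07 (95% interval -0.17 to 0.15, adjusted p = 0.901). The probes of Tet2 did not give one answer: a second one read -1.60, -1.42 and -1.60 in TGC3, against -1.24, -1.27 and -1.41 in TG, every TGC3 value below every TG value, yet -0.23 ± 0.08 missed the threshold (adjusted p = 0.0989 over all kept probes).

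Among the PRC2 genes, the catalytic subunit Ezh2 was higher. It read 0.81, 1.12 and 0.82 on the TGC3 arrays, against 0.19, 0.29 and 0.49 on the TG arrays, with no overlap and again TGC3 2 and TG 3 the highest of their groups. The change of 0.60 ± 0.12 (95% interval 0.30 to 0.89, adjusted p = 0.0182) was a 1.51-fold rise. Leaving out TG 1 (0.53, adjusted p = 0.0584) or TG 2 (0.58, adjusted p = 0.0607) ended the call.

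Ezh1, the catalytic subunit linked to resting cells, read -0.70, -0.85 and -0.61 on the TGC3 arrays, against -0.49, -0.50 and -0.53 on the TG arrays. All TGC3 values lay below the narrow band of TG values, while the change of -0.22 ± 0.08 (95% interval -0.41 to -0.03) did not pass (adjusted p = 0.0930). The log2 difference Ezh2 minus Ezh1 was 1.51, 1.98 and 1.42 on the TGC3 arrays, against 0.67, 0.79 and 1.02 on the TG arrays. Its change of 0.81 separated the groups, as it had to with Ezh2 wholly higher and Ezh1 wholly lower on the TGC3 arrays. The two-sided exact permutation test thus had to give p = 0.1, the smallest that 3 against 3 arrays allow (0.2 after adjustment over the 6 pairs compared). It adds nothing to the separation of each gene.

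Suz12, the subunit that holds PRC2 together, read 2.79, 2.83 and 2.69 on the TGC3 arrays, against 2.48, 2.51 and 2.68 on the TG arrays. The groups met but did not overlap, at TGC3 3 and TG 3, and the change of 0.21 ± 0.08 (95% interval 0.02 to 0.41) missed the threshold (adjusted p = 0.104). The probe lies at chr11:79847251-79847310 of mm9, and a second Suz12 probe at chr11:79826978-79827037 gave 0.05 ± 0.08 (adjusted p = 0.688) with overlapping groups. Suz12 passed after quantile normalization (0.27, adjusted p = 0.0334) and cyclic loess (0.28, adjusted p = 0.0352). Eed, which binds the methylated histone and stimulates the enzyme, read 0.49, 0.49 and 0.67 on the TGC3 arrays, against 0.38, 0.38 and 0.60 on the TG arrays. They overlapped, with a change of 0.10 ± 0.09 (95% interval -0.13 to 0.32, adjusted p = 0.481), and a second Eed probe, whose mm9 position is on the plus strand while the first lies on the minus strand, was not well above background on any array.

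Among the other pairs set against each other, Uhrf1 minus Dnmt1 changed by 0.91 and Hells minus Dnmt1 by 0.40, each with separate groups and an exact two-sided p of 0.1 (adjusted 0.2). Dnmt1 minus Dnmt3a (0.21, exact p = 0.3), Suz12 minus Eed (0.12, exact p = 0.4) and Dnmt3b minus Dnmt3a (-0.13, exact p = 0.6) overlapped between the groups. Over the 17 probes, 16 were kept as well above background, of which 3 were higher (both of Uhrf1 and that of Ezh2; 13.7% of 25103 kept probes) and 1 lower (Dnmt3b; 8.37%).

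**Figure D2:**
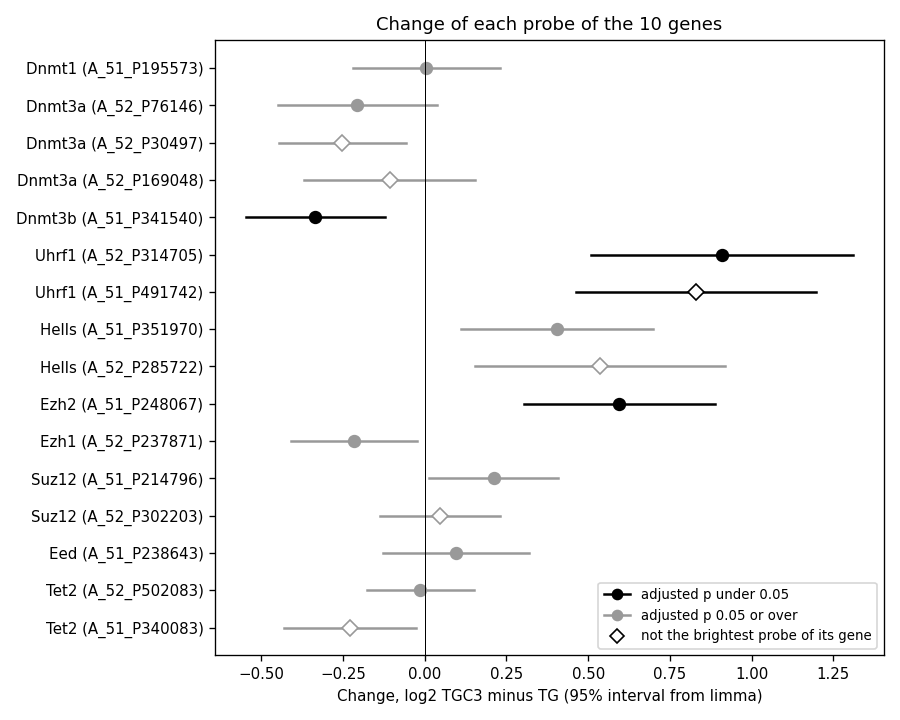
Change of each of the 16 kept probes, log2 TGC3 minus TG with its 95% interval from limma; black marks an adjusted p under 0.05 and diamonds mark probes that are not the brightest of their gene. Both Uhrf1 probes lie near each other (0.91 and 0.83), while the probes of Suz12 (0.21 and 0.05) and Tet2 (-0.01 and -0.23) lie apart.

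Genes of S phase and of G2 and M phase rose on the same arrays, and the regulators known to follow replication were read against them. Of 50 S phase genes, 30 were higher and 0 lower (0 lower also at an unadjusted p under 0.05), with a median change of 0.57. Of 50 G2 and M phase genes, 43 were higher and 0 lower (again 0 unadjusted), and their median change was 1.22. Among the largest S phase changes were those of the E2F repressor E2f8 (2.83-fold) and Rrm2, a subunit of ribonucleotide reductase (2.39-fold). In G2 and M phase they were Cenpf, a kinetochore protein (4.41-fold), Gtse1 (4.35-fold) and Nusap1, a spindle protein (4.35-fold). The number of S phase genes that were higher was 8 without TG 1 and 12 without TG 2.

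The median level of the S phase list, without the genes that also stand in the lists of methylation or folate enzymes (47 genes), was 1.22, 1.72 and 1.19 on the TGC3 arrays, against 0.72, 0.69 and 0.85 on the TG arrays. TGC3 2 thus had the highest and TG 3 the highest TG value there too. Among the 10 genes, TGC3 2 was the highest TGC3 array for 7 and the highest of all arrays for 5, but the lowest of all arrays for 2. TG 3 was the highest TG array for 6. The like shares of all genes tested are not given here, so these counts have no background to be read against. Set against this median on each array, Ezh2 changed by -0.02, Uhrf1 by 0.29 and Hells by -0.22. The groups overlapped for Ezh2 and Hells, at -1.99, -2.45 and -2.07 for Hells in TGC3, against -2.03, -2.04 and -1.80 in TG. Uhrf1 stood at 0.60, 0.47 and 0.59 in TGC3, against 0.17, 0.16 and 0.46 in TG. Every TGC3 value of Uhrf1 lay above every TG value, but TGC3 2 (0.465) and TG 3 (0.463) nearly met. Suz12 changed by -0.41 relative to it, Eed by -0.52, Dnmt1 by -0.62 and Tet2 by -0.63, and the lowest were Dnmt3a (-0.83), Ezh1 (-0.84) and Dnmt3b (-0.96). Without TGC3 2, which had the highest S phase median, the values were 0.05 for Ezh2, -0.07 for Hells, -0.27 for Suz12 and -0.32 for Eed. For Dnmt1 the level minus that median was 0.22, -0.10 and 0.23 on the TGC3 arrays, against 0.69, 0.74 and 0.77 on the TG arrays, every TGC3 value below every TG value. Dnmt1 itself changed by 0.00, so this separation is that of the list median, which changed by 0.62. Set against the G2 and M phase list, whose median level changed by 1.33, all 10 genes were lower, from -0.42 (Uhrf1) to -1.66 (Dnmt3b).

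**Figure D3:**
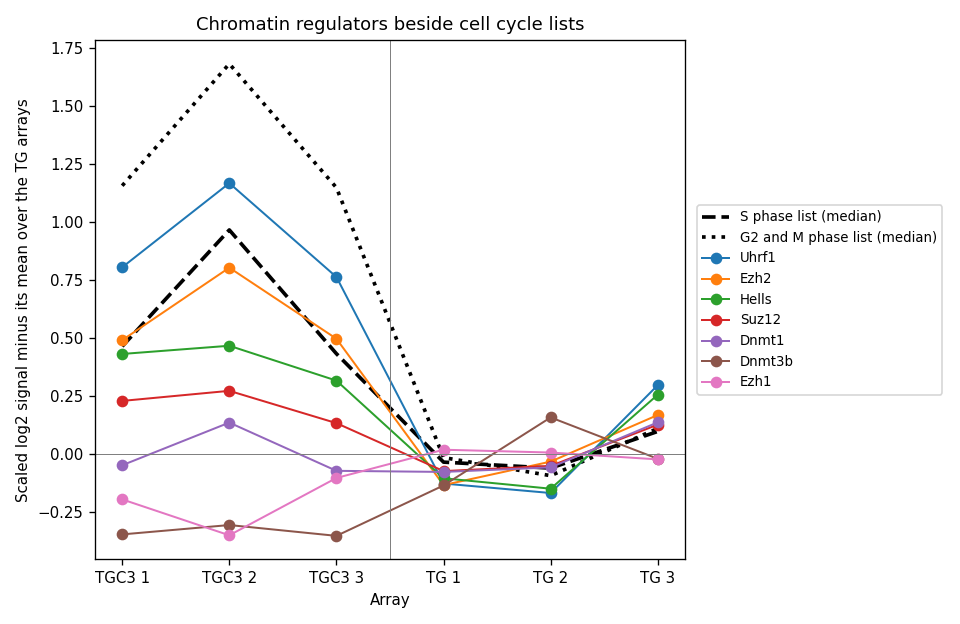
Scaled log2 signal of 7 of the genes on each array, minus the gene's mean over the TG arrays, with the medians of the S phase (dashed) and G2 and M phase (dotted) lists drawn the same way. On the TGC3 arrays Uhrf1 lies above the S phase list, Hells and Suz12 lie below it, and Ezh2 lies above it on TGC3 1 and TGC3 3 and below it on TGC3 2, while on the TG arrays, which average 0 by construction, the order varies.

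Genes nearest to each of the 3 that passed, by the Euclidean distance of log2 levels centred on each gene's mean over the 6 arrays, were named from all genes with a RefSeq symbol. Nearest to Uhrf1 were Exo1, an exonuclease of DNA repair (distance 0.08, change 0.90), Asf1b, a histone chaperone (0.13, change 0.88), and Brip1, a helicase (0.13, change 0.86). Those of Ezh2 were Scg3 (0.10), Dera (0.10) and Mdm1 (0.12), and those of Dnmt3b were Cyp51, an enzyme of cholesterol synthesis (0.09, change -0.28), Abhd11 (0.10) and Max, the partner of MYC (0.11, change -0.36).

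Of 9 further writers of DNA methylation and their partners, 1 was higher and 1 lower (median -0.04). Dnmt3l, a cofactor of the de novo enzymes known mainly from germ cells, read -3.15, -2.80 and -3.24 on the TGC3 arrays, against -3.64, -3.81 and -3.66 on the TG arrays, all dim, with a change of 0.65 ± 0.13 (adjusted p = 0.0164). Usp7, a deubiquitinase that binds Dnmt1 and Uhrf1, was lower (-0.31, adjusted p = 0.0364). Dnmt3l lost its call when TG 2 was left out (adjusted p = 0.0572), and Usp7 passed only without TGC3 2 when 1 array was left out. Of 7 readers of methylated CpG, 0 were higher (0 also unadjusted) and 1 was lower, Mbd1 (-0.37, adjusted p = 0.0108).

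Genes of demethylation changed both ways: of 13 measured, 2 were higher and 2 lower (median 0.13). Tdg, the glycosylase that cuts out oxidised methylcytosine, read 0.95, 1.08 and 0.93 on the TGC3 arrays, against 0.33, 0.27 and 0.29 on the TG arrays. The groups were far apart for their spread (change 0.69 ± 0.07, adjusted p = 0.0024). Tet3 read 0.89, 0.82 and 0.86 on the TGC3 arrays, against 1.32, 1.33 and 1.38 on the TG arrays, and was lower (-0.49 ± 0.06, adjusted p = 0.0038), while Tet1 did not pass (0.08, adjusted p = 0.430). Gadd45b, a stress-induced gene also linked to demethylation, was higher (0.74, adjusted p = 0.0037), and Smug1, a uracil glycosylase, was lower (-0.34, adjusted p = 0.0162; 0.0590 without TG 1). Tdg, Tet3, Gadd45b and Mbd1 passed whichever 1 array was left out.

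None of the 7 further PRC2 subunits passed in limma (0 higher, 0 lower, median 0.09), while at an unadjusted p under 0.05, 2 were higher and 0 lower. Phf19, which brings PRC2 to its sites, came nearest (0.26, adjusted p = 0.0624, groups apart), then Aebp2 (0.22, adjusted p = 0.0633, groups apart). Of 21 PRC1 subunits, the complex that ubiquitinates histone H2A, 2 were higher and 5 lower (median -0.17). Scmh1 (-0.41, adjusted p = 0.0061), Cbx8 (-0.43, adjusted p = 0.0489) and Cbx2 (-0.36, adjusted p = 0.0402) were lower, and the ubiquitin ligase Ring1 was higher (0.41, adjusted p = 0.0308). When 1 array was left out, Scmh1 passed each time, whereas 0 to 1 of the PRC1 genes were higher and 1 to 3 lower. Cbx8 then passed only without TG 3 and Ring1 only without TGC3 3, and Cbx2 did not pass without TGC3 3, TG 1, TG 2 or TG 3. Among 12 genes that oppose Polycomb, 1 was lower, the deubiquitinase Bap1 (-0.22, adjusted p = 0.0366), which lost its call whichever array was left out. These counts depend on the scaling: with arrays centred on their median, which moved the median of all genes to -0.18, 0 of the PRC1 genes were higher and 13 lower, and 9 of the genes that oppose Polycomb were lower.

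Of 9 genes of histone H3 lysine 9 methylation, 2 were higher (median 0.03): Suv39h2 (0.73, adjusted p = 0.0088), and Suv39h1 (0.26, adjusted p = 0.0442), which passed only without TG 3 when 1 array was left out. Of 14 genes that supply the methyl donor and folate, 3 were higher and 0 lower (2 lower at an unadjusted p under 0.05; median 0.09), among them Tyms (0.69, adjusted p = 0.0262) and Shmt1 (0.35, adjusted p = 0.0388). Tyms makes thymidylate for replication and also stands in the S phase list. Without TG 2 none of the 3 passed, and without TG 1 only Shmt1 did.

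**Figure D4:**
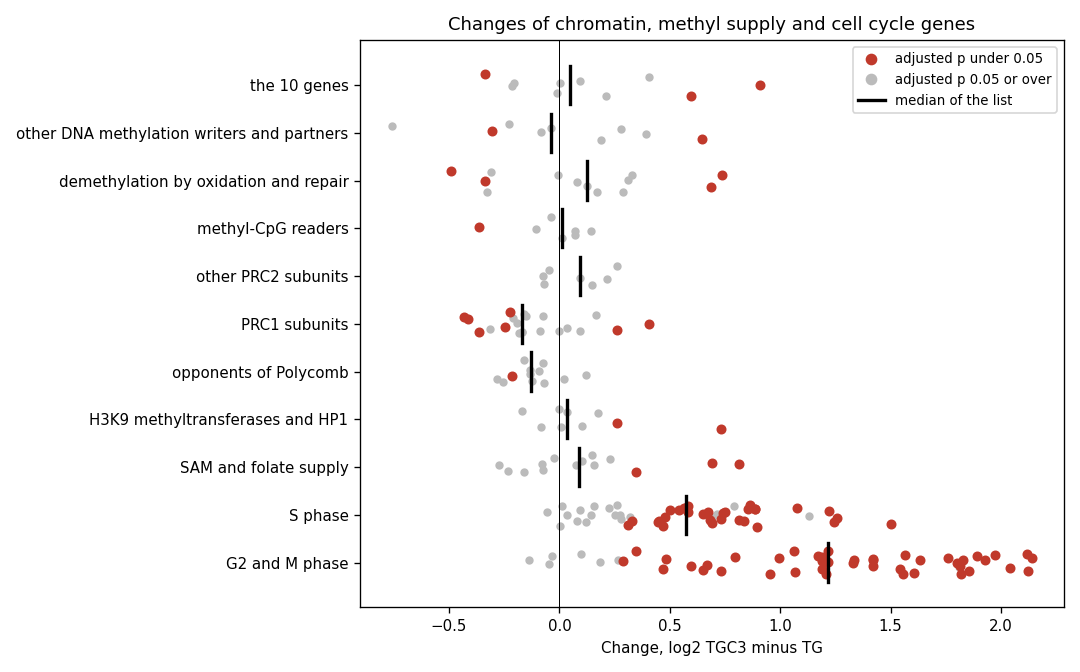
Change of every measured gene of each list, log2 TGC3 minus TG; coloured points have an adjusted p under 0.05 and the vertical bar is the list's median. The medians of the chromatin lists lie between -0.17 (PRC1 subunits) and 0.13 (demethylation), those of S phase and of G2 and M phase at 0.57 and 1.22.

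Genes that others have reported as silenced by these enzymes were read last. Of 11 naive and memory genes reported as targets of Ezh2 or Dnmt3a in CD8+ T cells, 1 was higher and 2 were lower (median -0.30). Ccr7, the lymph node homing receptor, read 3.05, 3.19 and 3.55 on the TGC3 arrays, against 4.11, 4.26 and 4.13 on the TG arrays (change -0.91 ± 0.14, adjusted p = 0.0079). Klf2, a factor of resting T cells, was higher (0.31, adjusted p = 0.0287, past the threshold only without TGC3 1 when 1 array was left out), while Tcf7 did not pass (0.06, adjusted p = 0.477). Without TGC3 2, 5 of these genes were lower, and with arrays centred on their median 6 were lower and 0 higher. Of 13 loci commonly silenced by Polycomb and present on the array, 9 were measured and 3 were higher: Cdkn1a (0.79, adjusted p = 0.0484), Gata6 (0.52, adjusted p = 0.0122) and Cdkn1c (0.43, adjusted p = 0.0166). For Cdkn1c the adjusted p was 0.0522 to 0.0586 when TGC3 1, TGC3 3 or TG 1 was left out. Cdkn1a, a cell cycle inhibitor also induced by p53, passed only without TGC3 2 when 1 array was left out. Of 11 germline genes that DNA methylation keeps silent, 6 were well above background on no array, 0 on all 3 TGC3 arrays and 1, Tdrd1, on all 3 TG arrays. Tdrd1 was the single one measured, and its change of -1.09 ± 0.54 did not pass (adjusted p = 0.182).

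Markers of other cells were read as summed levels relative to the 75th percentile. That of the neutrophil markers was highest on TGC3 2, as were Uhrf1 and Ezh2. Of 11 neutrophil markers, 4 were well above background on all TGC3 arrays and 1 on all TG arrays, and Elane, Cxcr2, Csf3r and Lcn2 were on none. Of the 4 that were measured 2 were higher, S100a9, well above background on 3 TGC3 arrays and 1 TG array, and S100a8, on 3 TGC3 arrays and 0 TG arrays. Of 6 B cell markers measured 4 were higher, among them Ms4a1, which was well above background on 3 TGC3 arrays and 0 TG arrays, and 1 was lower, Cd22 (-0.92). Of 9 macrophage and monocyte markers 4 were higher, led by Lyz2 (3.22). The sums of macrophage and monocyte markers, 228 to 286 in TGC3 against 255 to 269 in TG, were carried by Ly6c2, a gene CD8+ T cells also express, with log2 levels of 7.82 to 8.14 in TGC3 against 7.99 to 8.07 in TG, and do not show the rise of Lyz2 and Mpeg1. Likewise Cd79b, at 2.35 to 2.58 in TGC3 against 2.38 to 2.69 in TG, made up most of the B cell sums of 6.33 to 6.81 in TGC3 against 6.42 to 7.74 in TG. Of 7 dendritic cell markers measured 2 were higher, Zbtb46 (1.36) and Flt3 (0.42), and 1 was lower, Ccr9 (-1.13), with a median change of 0.32. Their sums of 27.5 to 34.5 in TGC3, against 37.0 to 44.2 in TG, were carried by Itgax and Ccr9, which T cells can also express. Hepatocyte markers summed to 0.41 to 0.45 against 0.36 to 0.44, and CD8 T cell markers to 753 to 821 against 838 to 935. Of the 10 CD8 T cell markers 0 were higher and 3 lower, with a median change of -0.20. With arrays centred on their median 10 were lower, and with cyclic loess 0. The hepatocyte genes Apoa1, Ttr and Cyp2e1, the B cell factor Pax5 and the macrophage genes C1qa and Timd4 were well above background on no array. Without TGC3 2, the array with the most neutrophil signal, the change was 0.78 for Uhrf1 (adjusted p = 0.0288), 0.49 for Ezh2 (adjusted p = 0.0319) and -0.35 for Dnmt3b (adjusted p = 0.0648). The other TGC3 arrays also had more neutrophil signal than the TG arrays. The part of the neutrophil and other markers in the changes was not tested.

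**Figure D5:**
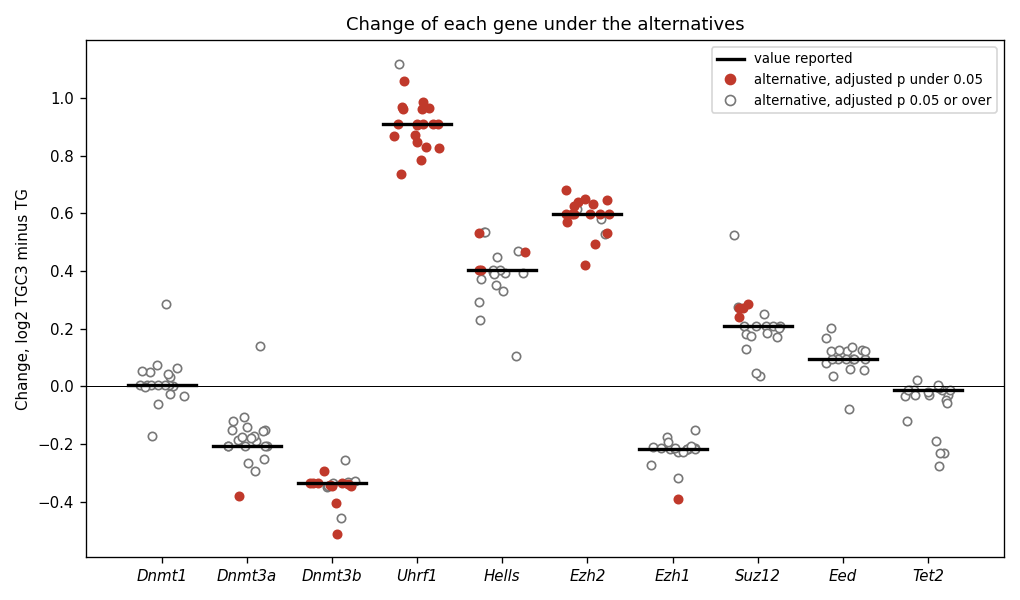
Change of each gene under every alternative way of processing, with the value reported here as a black line; filled points have an adjusted p under 0.05. Uhrf1 stays between 0.74 and 1.12 and Ezh2 between 0.42 and 0.68, and Dnmt1 lies on both sides of 0.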

How the data were processed

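One-colour (Cy3) Agilent arrays of 45018 spots were read, 6 in all, and the labelled genotype put 3 in TGC3 and 3 in TG. Per the file headers, spots were quantified with Feature Extraction 10.7.3.1 (10.7.1.1 per the submitters' processing notes), and the processed signal deposited for each spot is an intensity corrected for background, not normalized between arrays. The deposited normalized table holds log2 values with the same median on each array (5.57). How the authors made it is not given in the sources used here, and it served as an alternative.

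Non-control spots of a probe were averaged on the log2 scale (41174 probes; 11 left out as marked outliers; 0 saturated spots), scaled by each array's 75th percentile, and kept if 3 or more of the 6 arrays had them well above background (25103 probes). Names were updated from RefSeq by accession (27668 probes), symbol (5589) or synonym (471). Each gene's value is that of its brightest kept probe. TGC3 was compared with TG by limma 3.58.1 (lmFit, eBayes) in R 4.3.3, two-sided, with Benjamini-Hochberg adjustment over 16389 genes. Pairs of genes were compared by exact permutation. Promoter windows and figures used Python 3.11.15 with pandas 2.3.3 and matplotlib 3.10.9. Tested on simulated data of 16389 genes, the fit recovered 37 of 67 true changes of 1.5-fold, 52 of 67 of 2-fold and 62 of 66 of 4-fold, with 9 false calls, and 0 calls where nothing differed. The simulated noise was independent between genes and held no effect of slide or cell mixture. Far fewer genes were changed in it than were called here, so these rates need not hold for these arrays.

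The genes, lists and tests were chosen with earlier results of these data known. All 10 genes are named. Of each list of further methylation, Polycomb, methyl supply and target genes up to 4 past the threshold with the largest change are named, of the S phase and G2 and M phase lists up to 3, and for each of the 10 past the threshold the 3 nearest genes, besides Cxcr3, Cd8a, Cd8b1 and Cd3e. Some genes that the rule names are not reported here. Tet1, Tcf7, Phf19, Aebp2 and the markers of other cells are outside this rule and were named after their values were seen. Cd3e did not pass (-0.22, adjusted p = 0.0519), nor did Cd8a (-0.20, 0.201) or Cd8b1 (-0.08, 0.463). Of all 10 CD8 T cell markers, however, 3 were lower and 0 higher. Alternatives were 4 other normalizations, 2 normexp corrections, 2 filters, 2 ways to choose probes, other eBayes settings, array weights, a replicate block and leaving out each array.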

Additional observations from a re-analysis of the deposited data

How the results depend on the processing

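Uhrf1 was positive under all 20 alternatives and past the threshold in 19, including each left-out array (adjusted p 0.0144 to 0.0474). Ezh2 passed in 16 of 19 and Dnmt3b in 11 of 19. Centring on the median moved the median change of all genes to -0.18 and gave 1801 genes higher and 4766 lower (27.4% of calls higher, against 63.7% in the values reported) and 3 of the 10 lower, with Dnmt3a (-0.38, or -0.20 relative to that shift) and Ezh1 (-0.39, or -0.21) joining Dnmt3b. After normexp with the deposited spot backgrounds limma called 0 genes higher and 1 lower (505 at an unadjusted p under 0.05), and 0 of the 10 higher and 0 lower. With 7 aberrant backgrounds replaced, 2037 genes were higher and 1867 lower (52.2% of calls higher), and 2 of the 10 were higher and 1 lower. With no filter, where 27338 genes were tested and their median was 0.13, 578 genes were lower and 0 of the 10 (Dnmt3b adjusted p = 0.0905), with 78.4% of calls higher. Array weights gave 2414 genes lower and 4 of the 10 higher, Hells (adjusted p = 0.0158) and Suz12 (0.0360) with Uhrf1 and Ezh2. Hells also passed with a filter on all 6 arrays (0.0453) and with trended robust eBayes (0.0382), and Suz12 with the deposited values (0.0331).

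No shared effect of the replicate numbers in the titles was seen: deviations of arrays of one number correlated at -0.003, -0.077 and -0.099. These values cannot show whether samples of one number were handled together. With a replicate block, 1795 genes were higher and 554 lower (76.4% of calls higher), and 0 of the 10 were lower (Dnmt3b adjusted p = 0.0725), while Uhrf1 (0.0490) and Ezh2 (0.0497) passed. Of the S phase genes 8 were higher with the block and 18 with no filter. Leaving out 1 array gave 1752 to 2356 genes higher, 573 to 1505 lower, 1 to 3 of the 10 higher and 0 to 1 lower, with a change of sign only in values that did not pass. These were Dnmt1 at -0.17 with median centring, -0.00060 with array weights, and -0.061 without TGC3 2, -0.035 without TG 1 and -0.025 without TG 2, in a range of -0.061 to 0.072 over the left-out arrays. The others were Dnmt3a at 0.14 with normexp, Eed at -0.080 with median centring, and Tet2 at 0.023 without TGC3 3 and 0.0033 without TG 1, in a range of -0.057 to 0.023. With median centring the further lists had, as higher and lower, 1 and 3 (writers and partners), 2 and 4 (demethylation), 0 and 2 (readers), 0 and 1 (PRC2), 1 and 1 (lysine 9), 2 and 4 (methyl donor and folate), 1 and 0 (Polycomb-silenced loci), 21 and 0 (S phase) and 40 and 1 (G2 and M phase). The 6 pair differences were rerun only with normexp and the replaced backgrounds. The 120 values relative to the cycle lists likewise cover only some of the alternatives. Where rerun, both kept their direction or moved by less than 1 SD. The cause of these differences was not tested. Arrays give no counts, so the signal over background and the 3 arrays per group limit what could be seen.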
